A study of Mus musculus with 20 samples.

Results

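The genes that mark the layers of the cerebral cortex were followed in stroke tissue of aged mice. The set was given as a list of 9 symbols, 4 of upper-layer neurons (Cux1, Cux2, Rasgrf2 and Rorb) and 5 of deep-layer neurons (Fezf2, Bcl11b, Tbr1, Foxp2 and Tle4), and each was matched to 1 of the 46078 genes counted. Bulk RNA sequencing had measured polyadenylated RNA in 20 libraries from wild type C57BL/6J males that were 18 months old and had all received a stroke by permanent occlusion of the distal middle cerebral artery followed by hypoxia, a model whose infarct is centred on the somatosensory cortex. Injections began 1 week after the stroke and were given 3 times per week for 6 weeks. They contained vehicle (phosphate-buffered saline) or 4 g/kg HPBCD (hydroxypropyl-beta-cyclodextrin, a sugar ring that carries cholesterol), and tissue was collected 7 weeks after the stroke. Once the infarct had been removed, the tissue adjacent to it (peri-infarct) and the matching region of the other hemisphere (contralateral) were dissected, which gave 4 groups of 5 libraries, with each mouse giving both regions. There was no group without stroke, so the contralateral tissue, itself from a brain with an infarct, was the reference. Treatment is given here as the libraries were labelled. These labels are in doubt. Beside the infarct, the libraries labelled HPBCD held fewer neuronal and more fibroblast transcripts than those labelled vehicle, and only some glial markers were called higher. For neuronal transcripts this is the reverse of the direction that the study describes for the drug. Markers of ependyma and choroid plexus were also higher under the HPBCD label, as given below. Whether the labels were exchanged in the records used here, or the dissections differed, was not tested. If the labels were exchanged, the sign of every treatment difference and of the interaction would turn, and the comparison of regions given for mice labelled HPBCD would be that of vehicle mice. The labels were kept as they stand, and vehicle mice below means mice labelled vehicle.

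Excitatory neurons of the cortex are generated in sequence and settle into layers, the deep layers before the upper ones, and the genes they keep on into adulthood differ by layer. Upper-layer neurons mainly connect cortical areas with each other or receive thalamic input, whereas deep-layer neurons send axons to the thalamus, brainstem and spinal cord. Most of the 9 genes encode transcription factors that set these identities during development, and several are also used outside the cortex. Cux1 and Cux2 are related homeobox factors of upper-layer neurons that control dendrites and spines, although Cux1 is made by many other cells as well. Rasgrf2 is an exchange factor that activates Ras and Rac, and Rorb is a nuclear receptor of the neurons that receive thalamic input. Fezf2 is a zinc finger factor that specifies neurons projecting below the cortex, and Bcl11b, also known as Ctip2, acts downstream of it in those neurons and is abundant in striatal medium spiny neurons. Tbr1 is a T-box factor of neurons projecting to the thalamus, Foxp2 a forkhead factor of the same deep neurons and of the striatum and thalamus, and Tle4 a corepressor of the Groucho family.

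In the mouse genome (GRCm38) the upper-layer genes span chr5:136248135-136567490 (Cux1, ENSMUSG00000029705), chr5:121856366-122050102 (Cux2, ENSMUSG00000042589), chr13:91880400-92131656 (Rasgrf2, ENSMUSG00000021708) and chr19:18930605-19111196 (Rorb, ENSMUSG00000036192), all on the minus strand. Of the deep-layer genes, Fezf2 (ENSMUSG00000021743) spans chr14:12342094-12348189, Bcl11b (ENSMUSG00000048251) chr12:107910403-108003602 and Tle4 (ENSMUSG00000024642) chr19:14448150-14598051 on the minus strand, and Tbr1 (ENSMUSG00000035033) chr2:61802930-61814114 and Foxp2 (ENSMUSG00000029563) chr6:14901349-15441977 on the plus strand. Counts were summed over the exons of each gene.

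Gene counts per library ran from 14445021 to 22171627, so that 3 counts, taken as the floor, equalled 0.135 to 0.208 CPM (gene counts scaled to a common library total, with TMM factors over the 20 libraries). The 9 layer genes had 213 to 4905 counts in a library, far above that floor, and all 9 passed the filter on low counts in every comparison. Other brain regions were unevenly present in the libraries. Vehicle contralateral replicate 1 held 3940 summed CPM of 10 striatal markers, against 236 to 318 in the other 4 libraries of its group, and its Drd2, the dopamine receptor of striatopallidal neurons, stood at 72.0 CPM against 0.118 to 0.981. Fibcd1, a marker of hippocampal area CA1, stood at 53.8 CPM in vehicle peri-infarct replicate 1 and 175 CPM in HPBCD peri-infarct replicate 2, against 5.46 to 12.3 CPM in the other 18 libraries. These 3 libraries were therefore left out together as a further alternative, and values without them are given where a call, or the direction of a value printed here, changed. The gene Gm16599 overlaps 394 bases of Cux1 exons on the opposite strand and had 0 counts in 20 of 20 libraries. The strand option of the counting is not known, so these counts do not settle whether the overlap affects Cux1.

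Levels are compared between genes only per kilobase of exon. In the vehicle contralateral tissue Tbr1 was the most abundant member at 30.9 ± 5.55 CPM per kb (SD, n = 5), followed by Rasgrf2 at 18.7 ± 7.11 and Bcl11b at 14.0 ± 10.1. The place of Bcl11b rested on replicate 1, the library with striatal markers, since the other 4 libraries had 9.49 ± 1.67 CPM per kb. Fezf2 ranged from 6.39 to 13.8 CPM per kb, and Tle4 (8.99 ± 2.17) and Cux2 (8.74 ± 2.06) lay within that range. Rorb (5.83 ± 0.718) and Cux1 (5.47 ± 0.58) were lower, and Foxp2, at 1.47 ± 0.486, was the lowest. Among neighbours in this order, only Cux1 and Foxp2 had ranges over the 5 libraries that did not overlap, from 4.77 to 6.29 and from 0.887 to 2.15 CPM per kb. The members therefore had an order in which no layer came first, since the list of each layer held both abundant and scarce transcripts.

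A RefSeq start site is shown for Cux2, Rorb and Tbr1, the members whose difference between the regions depended on the treatment. RefSeq promoter windows (GRCm38.p6, 250 bases before to 50 bases after a start site) were found for 8 of the 9 members, in 11 windows, and Foxp2 was the member that did not match. The windows are read 5′ to 3′ on the strand of the gene, and capitals mark CG dinucleotides, the sites of DNA methylation. The Cux2 window lies at chr5:122049802-122050101 on the minus strand, the Rorb window at chr19:19111147-19111446 on the minus strand and the Tbr1 window at chr2:61804203-61804502 on the plus strand. The Cux2 and Tbr1 windows lie inside the gene spans given above, so they do not hold the outermost start of those genes.
Cux2: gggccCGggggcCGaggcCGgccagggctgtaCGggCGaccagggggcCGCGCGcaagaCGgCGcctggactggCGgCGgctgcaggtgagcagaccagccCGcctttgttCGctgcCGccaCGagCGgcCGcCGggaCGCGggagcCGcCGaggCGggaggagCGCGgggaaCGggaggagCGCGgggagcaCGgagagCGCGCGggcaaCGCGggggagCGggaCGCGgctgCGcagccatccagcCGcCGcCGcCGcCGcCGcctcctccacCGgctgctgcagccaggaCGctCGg
Rorb: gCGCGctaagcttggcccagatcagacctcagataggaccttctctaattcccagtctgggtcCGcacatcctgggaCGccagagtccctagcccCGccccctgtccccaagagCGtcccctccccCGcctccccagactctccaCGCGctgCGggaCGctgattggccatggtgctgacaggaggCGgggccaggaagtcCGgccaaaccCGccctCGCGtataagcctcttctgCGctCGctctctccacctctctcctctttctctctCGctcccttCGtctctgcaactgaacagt
Tbr1: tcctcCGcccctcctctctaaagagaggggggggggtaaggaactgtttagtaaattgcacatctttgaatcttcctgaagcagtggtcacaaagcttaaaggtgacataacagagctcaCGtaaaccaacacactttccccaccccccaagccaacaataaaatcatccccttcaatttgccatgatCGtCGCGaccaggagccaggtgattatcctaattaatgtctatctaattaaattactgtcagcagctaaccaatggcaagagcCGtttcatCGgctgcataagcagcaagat
The first Cux2 window, which is printed, held 48 CG dinucleotides and 80.3% G or C, the first Rorb window 20 and 63.7%, and the Tbr1 window 7 and 46.0%, beside medians of 7 and 52.7% over 32851 windows of the same length. Cux2 and Rorb each have a second window that is not printed, with 4 CG and 56.7% G or C for Cux2 and 5 CG and 41.0% for Rorb, so that the CG content of a member depends on the start site. The Bcl11b window had 9 CG dinucleotides and 43.0% G or C. The windows were also searched on both strands for letters bound by the families of the members themselves. AGGTGTGA (T-box) was in 0 of the 11 windows and in 1.28% of all windows, and AGGTCA (the half-site of ROR receptors) in 0 of the 11 and 16.3% of all. ATCGAT (CUX) was in 1 of the 11, a second Cux2 window, and in 0.925% of all. TGTTTAC (forkhead) was in 1 of the 11, that of Cux1, and in 3.65% of all.

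The comparison of regions in vehicle mice asks how the tissue beside the infarct differs from the other hemisphere without drug, if the labels hold. The 4 upper-layer genes all had lower mean levels in peri-infarct tissue, of which Cux1 and Rorb fell past the threshold, whereas no deep-layer gene was called. Cux1 stood at 95.5, 126, 102, 114 and 110.0 CPM in the contralateral libraries (replicates 1 to 5) and at 74.4, 93.5, 96.1, 86.1 and 72.6 CPM in the peri-infarct libraries. The ranges touch only where 2 peri-infarct libraries were near the lowest contralateral one, and the level was lower in the peri-infarct tissue of 5 of 5 mice. The fall was 1.31-fold (log2 fold change -0.39, SE 0.10, adjusted p = 0.0231). Rorb stood at 56.6, 72.8, 56.05, 71.4 and 66.2 CPM in contralateral and 38.55, 40.8, 44.7, 56.6 and 42.7 CPM in peri-infarct libraries. The highest peri-infarct library, replicate 4, lay just above the lowest contralateral ones, and 5 of 5 mice had less Rorb beside the infarct. It fell 1.46-fold (log2 fold change -0.54, SE 0.11, adjusted p = 0.0081). In bulk tissue, fewer neurons of a layer and less of a transcript per neuron cannot be told apart.

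Cux2 and Rasgrf2 had lower means that did not pass. Cux2 stood at 65.7, 112, 79.5, 108 and 74.8 CPM in contralateral and 69.7, 92.8, 46.8, 60.6 and 54.3 CPM in peri-infarct libraries, and the groups overlapped, with peri-infarct replicates 1 and 2 above the lowest contralateral library. Its log2 fold change was -0.45 (SE 0.20, adjusted p = 0.123), with 4 of 5 mice lower. With the mouse as a block the adjusted p of Cux2 was 0.0451, and without vehicle peri-infarct replicate 2 it was 0.0267 at a log2 fold change of -0.62. Rasgrf2 stood at 109.8, 207, 166, 267 and 116 CPM in contralateral and 139, 170.0, 108, 156 and 126 CPM in peri-infarct libraries, and its spread among contralateral libraries was wider than the difference (log2 fold change -0.32, SE 0.23, adjusted p = 0.344).

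The deep-layer genes did not share a direction in vehicle mice. Tbr1 was lower in 4 of 5 mice at 138, 149.7, 160.1, 186 and 213.5 CPM in contralateral and 102, 160.1, 66.0, 118 and 180.5 CPM in peri-infarct libraries (log2 fold change -0.45, SE 0.23, adjusted p = 0.18). Fezf2 was the most variable member beside the infarct, with 34.5, 43.6, 12.5, 36.8 and 71.7 CPM there against 19.5, 21.7, 33.7, 41.9 and 35.8 CPM in contralateral libraries (log2 fold change 0.37, SE 0.35, adjusted p = 0.5). Peri-infarct replicate 3 had the least Fezf2 and Tbr1 of its group and replicate 5 the most of both. Bcl11b stood at 258, 63.15, 67.9, 85.2 and 91.5 CPM in contralateral and 180.3, 119, 200.1, 128 and 119 CPM in peri-infarct libraries. The first of those contralateral libraries, replicate 1, is the one with the striatal markers, and all others lay below all 5 peri-infarct libraries. The log2 fold change of Bcl11b was 0.39 (SE 0.36, adjusted p = 0.477) over all libraries and 0.96 (adjusted p = 0.00795) without that library, or 0.88 (adjusted p = 0.0173) without the libraries that stand apart. Foxp2 (log2 fold change 0.13, SE 0.22, adjusted p = 0.716) and Tle4 (log2 fold change 0.03, SE 0.16, adjusted p = 0.927) had ranges that overlapped across the regions. Without the libraries that stand apart Foxp2 was at 0.42 (adjusted p = 0.173).

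In all, 2 of 9 members were called lower in vehicle mice against 9.7% of the 15801 genes tested, 0 of 9 higher against 10.5%, and 0 of 9 had groups that did not overlap against 13.4%. The call of Cux1 was lost without vehicle peri-infarct replicate 1, 4 or 5 or vehicle contralateral replicate 2 or 5, with adjusted p from 0.0503 to 0.0596. The call of Rorb held when each of the 10 libraries was left out in turn. Scaled to the summed counts of 11 genes of excitatory neurons of all layers, which put the median of all genes at 0.23, neither was called, with Cux1 at -0.17 and Rorb at -0.32 (adjusted p = 0.101).

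**Figure D1:**
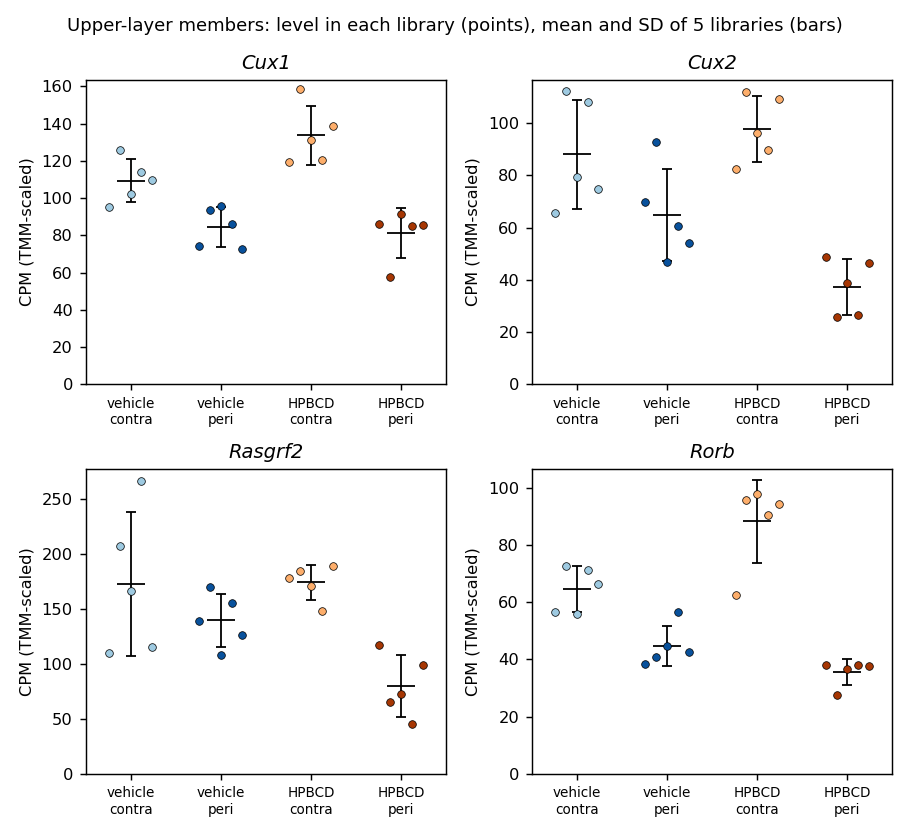
Level of Cux1, Cux2, Rasgrf2 and Rorb in CPM (y axis, from 0) in each of the 20 libraries, with 5 points per group and bars for the mean and SD. In the HPBCD groups the peri-infarct points lie below all contralateral points for the 4 genes, whereas in the vehicle groups the points overlap.

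In mice labelled HPBCD the 4 upper-layer genes all fell in peri-infarct tissue. Cux2 stood at 82.4, 112, 96.0, 89.8 and 109 CPM in contralateral libraries and at 48.7, 25.9, 39.0, 26.55 and 46.6 CPM in peri-infarct libraries. The groups were well apart, with the highest peri-infarct library at 48.7 CPM and the lowest contralateral library at 82.4 CPM. Cux2 fell 2.62-fold (log2 fold change -1.39, SE 0.17, adjusted p = 2.36e-05). Rorb stood at 62.6, 95.85, 97.7, 90.7 and 94.4 CPM in contralateral and 38.0, 27.5, 36.6, 37.9 and 37.7 CPM in peri-infarct libraries. Contralateral replicate 1 and peri-infarct replicate 2 were each the low library of their group, yet the groups did not overlap. Rorb fell 2.48-fold (log2 fold change -1.31, SE 0.13, adjusted p = 3.56e-06).

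Rasgrf2 and Cux1 showed the same order of groups. Rasgrf2 stood at 179, 185, 171, 148 and 189 CPM in contralateral and 117, 65.6, 72.95, 45.1 and 98.7 CPM in peri-infarct libraries and fell 2.18-fold (log2 fold change -1.13, SE 0.20, adjusted p = 0.000445). The peri-infarct libraries varied over a wider range than the contralateral ones. Cux1 stood at 119.5, 159, 131.5, 121 and 139 CPM in contralateral and 86.2, 57.9, 91.4, 85.1 and 85.6 CPM in peri-infarct libraries and fell 1.65-fold (log2 fold change -0.72, SE 0.12, adjusted p = 0.000214), the smallest change of the 4. Each of the 4 genes was lower beside the infarct in 5 of 5 mice.

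Tbr1, a deep-layer gene, had the largest fall of all 9 members in these mice. It stood at 182.5, 217, 192, 204 and 176 CPM in contralateral libraries and at 87.65, 38.6, 65.9, 30.6 and 67.3 CPM in peri-infarct libraries, so that the highest peri-infarct library had less than the lowest contralateral one. The fall was 3.35-fold (log2 fold change -1.75, SE 0.23, adjusted p = 4.01e-05). Fezf2 stood at 27.5, 26.1, 31.7, 26.7 and 22.95 CPM in contralateral and 25.8, 29.4, 18.1, 11.8 and 19.0 CPM in peri-infarct libraries, with overlapping groups and no call (log2 fold change -0.37, SE 0.21, adjusted p = 0.151). Without HPBCD peri-infarct replicate 2, the library with hippocampal markers, Fezf2 was called at -0.54 (adjusted p = 0.0194). Tle4 varied between 41.1 and 63.4 CPM over both regions and was not called (log2 fold change -0.18, SE 0.12, adjusted p = 0.217).

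Bcl11b and Foxp2 rose where the other deep-layer genes did not. Bcl11b stood at 71.6, 97.8, 92.2, 96.8 and 60.8 CPM in contralateral and 146, 241, 132, 145 and 144 CPM in peri-infarct libraries, and all 5 peri-infarct libraries were higher. It rose 1.94-fold (log2 fold change 0.95, SE 0.19, adjusted p = 0.00105). Foxp2 stood at 18.1, 20.9, 25.03, 18.7 and 14.55 CPM in contralateral and 32.8, 14.75, 40.6, 38.9 and 34.4 CPM in peri-infarct libraries, where replicate 2 was low and the other 4 libraries lay above all contralateral ones. It rose 1.65-fold (log2 fold change 0.72, SE 0.22, adjusted p = 0.0152). Without HPBCD peri-infarct replicate 2, the log2 fold change was 0.75 (adjusted p = 0.00035) for Bcl11b and 0.90 (adjusted p = 0.000105) for Foxp2.

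**Figure D2:**
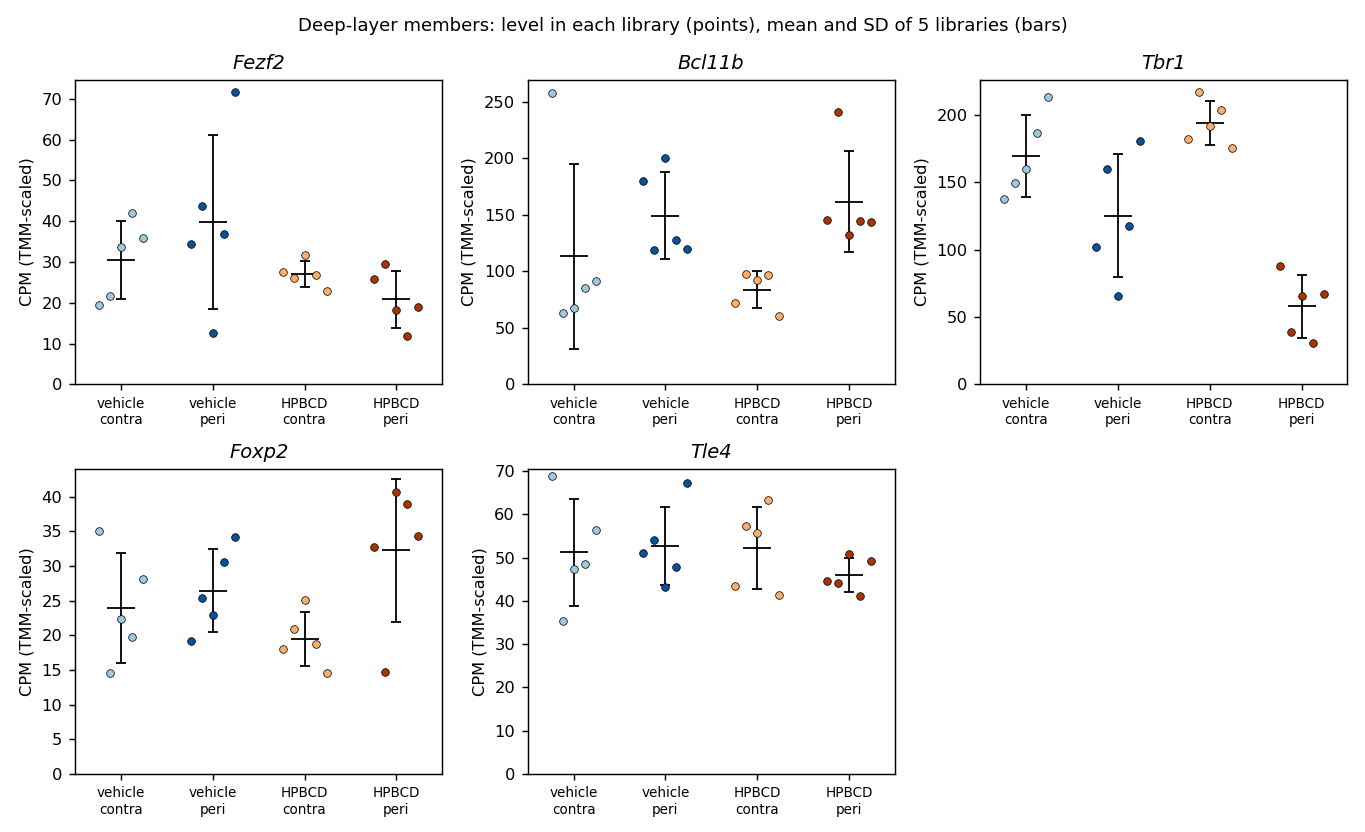
Level of Fezf2, Bcl11b, Tbr1, Foxp2 and Tle4 in CPM (y axis, from 0) in each of the 20 libraries, with 5 points per group and bars for the mean and SD. Tbr1 of the HPBCD peri-infarct group lies at 30.6 to 87.7 CPM, below all contralateral points, while Bcl11b is high in vehicle contralateral replicate 1 (258 CPM) and HPBCD peri-infarct replicate 2 (241 CPM).

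Striatal transcripts moved with those rises. The 10 striatal markers (among them the dopamine receptors Drd1 and Drd2 and the adenosine receptor Adora2a) summed to 793 to 2320 CPM in HPBCD peri-infarct libraries and to 245 to 294 CPM in HPBCD contralateral libraries, and 10 of 10 were called higher, with Drd2 at a log2 fold change of 5.47 (adjusted p = 9.63e-07). In vehicle mice they summed to 396 to 2240.0 CPM in peri-infarct libraries and to 236 to 318 CPM in the contralateral libraries other than replicate 1, with 0 of 10 called over all libraries. Drd2 itself was near the floor in the HPBCD contralateral libraries at 0.169 to 1.01 CPM and stood at 11.1 to 41.7 CPM in the peri-infarct libraries. HPBCD peri-infarct replicate 2 had the most Bcl11b and the least Foxp2 of its group, and also the lowest striatal sum and the highest hippocampal sum (301 CPM, against 64.1 to 73.7 in the other 4). Bcl11b is also made in the hippocampus, in granule cells and CA1. The part of striatal and hippocampal tissue in the levels of Bcl11b and Foxp2 was not tested.

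**Figure D3:**
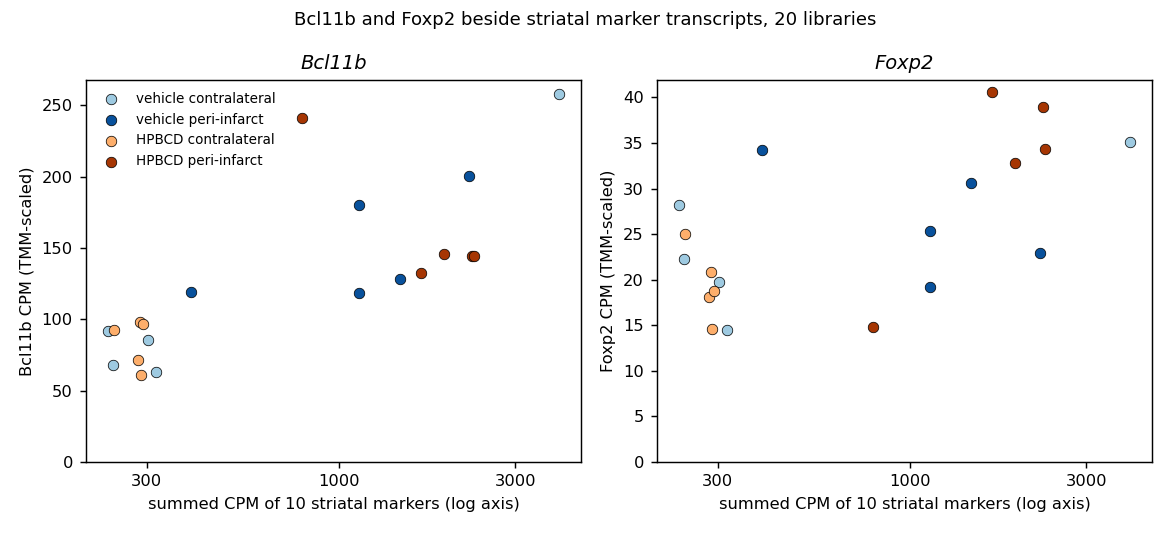
Bcl11b and Foxp2 (y axes, CPM) against the summed CPM of 10 striatal markers (x axis, log scale) in the 20 libraries, coloured by group. The 9 contralateral libraries other than vehicle replicate 1 lie together at a striatal sum of 236 to 318 CPM, and HPBCD peri-infarct replicate 2 is the point with 241 CPM of Bcl11b and 14.75 CPM of Foxp2 at a striatal sum of 793 CPM.

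Over the 9 members in mice labelled HPBCD, 5 were called lower against 24.3% of the 16047 genes tested, 2 higher against 30.3%, and 6 had groups that did not overlap against 42.5%. The lower share was thus above that of all genes and the higher share was below it. All 7 calls held when each of the 10 libraries was left out in turn. With libraries scaled to the same 11 excitatory genes, which put the median of all genes at 0.99, only Tbr1 remained called lower at -0.82 (adjusted p = 0.00384). Cux2 (-0.44, adjusted p = 0.0606), Rorb (-0.33) and Rasgrf2 (-0.22) were then not called and Cux1 turned to 0.28 (adjusted p = 0.242). Fezf2 turned to 0.49 (adjusted p = 0.0129) and Tle4 to 0.78 (adjusted p = 0.00188), while Bcl11b was at 1.85 and Foxp2 at 1.76, the last pair above the shift of the median.

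Upper and deep layers were then set against each other within each library, as the mean log2 CPM of the 4 upper-layer genes minus that of the 5 deep-layer genes. The score was 0.832 ± 0.548 (SD, n = 5) in vehicle contralateral, 0.319 ± 0.341 in vehicle peri-infarct, 1.15 ± 0.254 in HPBCD contralateral and 0.158 ± 0.179 in HPBCD peri-infarct libraries. The difference of peri-infarct from contralateral libraries was -0.51 in vehicle mice, where the groups overlapped, and -1.0 in mice labelled HPBCD, where they did not. No test was made of a score over chosen genes. In vehicle mice the upper-layer mean was 6.64 ± 0.284 in contralateral and 6.24 ± 0.168 in peri-infarct libraries, and the deep-layer mean 5.81 ± 0.309 and 5.92 ± 0.319. In mice labelled HPBCD the upper-layer mean was 6.89 ± 0.156 in contralateral and 5.72 ± 0.303 in peri-infarct libraries, whereas the deep-layer mean was 5.73 ± 0.204 and 5.57 ± 0.196.

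The score depended on which deep-layer genes it held. Without Bcl11b and Foxp2, the pair that striatal neurons also make, the 3 remaining deep-layer genes had a mean of 6.01 ± 0.156 in HPBCD contralateral and 5.20 ± 0.344 in HPBCD peri-infarct libraries. The change between the regions in mice labelled HPBCD was then -0.35 in place of -1.0, and that in vehicle mice -0.33 in place of -0.51. The difference between treatments beside the infarct changed sign, from -0.16 to 0.19, and the interaction went from -0.48 to -0.01. Vehicle peri-infarct replicate 5, with the most Fezf2 and Tbr1 of its group, was the lowest of the vehicle libraries at -0.26.

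**Figure D4:**
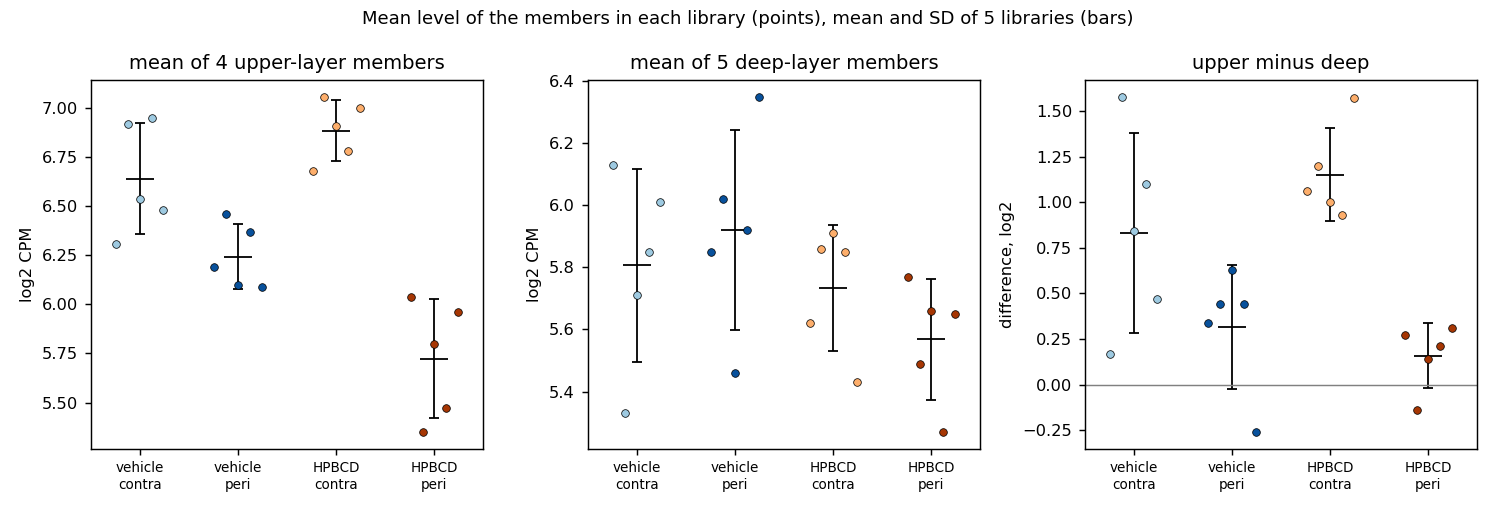
Mean log2 CPM of the 4 upper-layer members (left), of the 5 deep-layer members (middle) and their difference (right) in each library, with bars for the mean and SD of 5 libraries; the axes do not start at 0. The difference of the HPBCD peri-infarct libraries lies at -0.14 to 0.312, below the HPBCD contralateral libraries at 0.932 to 1.57.

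The comparison of treatments asks how libraries labelled HPBCD and vehicle differ in the tissue beside the infarct. Peri-infarct libraries labelled HPBCD had less Cux2, Rasgrf2 and Tbr1 than those labelled vehicle, and no member was higher past the threshold. Cux2 fell 1.74-fold (log2 fold change -0.80, SE 0.22, adjusted p = 0.03), with 25.9 to 48.7 CPM in libraries labelled HPBCD and 46.8 to 92.8 CPM in those labelled vehicle. Rasgrf2 fell 1.76-fold (log2 fold change -0.81, SE 0.23, adjusted p = 0.0303), from 108 to 170.0 CPM down to 45.1 to 117 CPM. Tbr1 fell 2.17-fold (log2 fold change -1.12, SE 0.32, adjusted p = 0.0318), from 66.0 to 180.5 CPM down to 30.6 to 87.7 CPM. For each of the 3 genes the groups overlapped by a few libraries. Markers of other cells moved in the same comparison. Fibroblast genes were called higher under the HPBCD label in 5 of 5 (Col3a1 at 2.83, adjusted p = 0.0169), astrocyte genes in 3 of 8 (Vim at 1.30, adjusted p = 0.0309) and ependymal and choroid genes in 4 of 7 (Foxj1 at 1.43, adjusted p = 0.0128), while general neuronal genes were called lower in 10 of 11 (Snap25 at -0.68, adjusted p = 0.0329) and excitatory genes in 4 of 11 (Emx1 at -1.03, adjusted p = 0.015). Among microglial and macrophage genes only Mrc1 was called (1.81, adjusted p = 0.0171), and among oligodendrocyte genes only Mobp (0.75, adjusted p = 0.034), both higher. No precursor or striatal gene was called. The part of all these cells in the differences of the layer genes was not tested.

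Rorb was the member whose peri-infarct groups did not overlap, at 27.5 to 38.0 CPM in libraries labelled HPBCD and 38.5 to 56.6 CPM in those labelled vehicle, yet it did not pass (log2 fold change -0.34, SE 0.12, adjusted p = 0.0605). With DESeq2 it was called (adjusted p = 0.0297), as was Fezf2 (-0.95, adjusted p = 0.0425, against -0.94 and 0.0914 with edgeR). With edgeR Fezf2 was called without vehicle peri-infarct replicate 3 (-1.16, adjusted p = 0.0179), and was at -0.61 (adjusted p = 0.228) without vehicle peri-infarct replicate 5. Cux1 (log2 fold change -0.06, SE 0.13, adjusted p = 0.732), Bcl11b (log2 fold change 0.11, SE 0.21, adjusted p = 0.715), Foxp2 (log2 fold change 0.28, SE 0.24, adjusted p = 0.41) and Tle4 (log2 fold change -0.20, SE 0.12, adjusted p = 0.209) were not called. Without HPBCD peri-infarct replicate 2 Foxp2 was called at 0.46 (adjusted p = 0.045), and without the 3 libraries that stand apart it was at 0.36 (adjusted p = 0.0756) and Bcl11b at -0.01. Of the 9 members, 3 were called lower against 9.0% of the 16224 genes tested, 0 higher against 12.4%, and 1 had groups that did not overlap against 13.4%.

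These 3 calls were close to the threshold. None was left when replicate 1 or 2 of the vehicle group or replicate 3 of the HPBCD group was omitted, nor without the 3 libraries that stand apart, where Cux2 was at -0.67 (adjusted p = 0.0714), Rasgrf2 at -0.75 (adjusted p = 0.0694) and Tbr1 at -1.07 (adjusted p = 0.0584). Without HPBCD peri-infarct replicate 4, Rasgrf2 alone was called. The call of Rasgrf2 was also lost without vehicle peri-infarct replicate 4, and that of Tbr1 without replicate 5 of either peri-infarct group. Their log2 fold changes kept their sign throughout. Scaled to the excitatory genes, which put the median of all genes at 0.67, Cux2 (-0.14), Rasgrf2 (-0.20) and Tbr1 (-0.50) were not called, while Cux1 turned to 0.63 (adjusted p = 0.0263) and Rorb to 0.35. That scaling called 68.0% of all genes higher, Cux1, Bcl11b (0.72, adjusted p = 0.00661) and Foxp2 (1.0, adjusted p = 0.0205) among them, with Cux1 below the median of all genes.

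In contralateral tissue no layer gene was called between the treatments. The count was 0 of 9 with edgeR and with DESeq2, against 0.0% of the 15469 genes tested with edgeR, where 1224 genes had an unadjusted p under 0.05 and DESeq2 called 45. The smallest unadjusted p-values were those of Rorb (log2 fold change 0.44, SE 0.12, adjusted p = 0.483, unadjusted p = 0.00305) and Cux1 (log2 fold change 0.28, SE 0.09, adjusted p = 0.551, unadjusted p = 0.0113), both with higher means in libraries labelled HPBCD. No member had groups that did not overlap, against 1.51% of all genes. The log2 fold change of Bcl11b was -0.45 (SE 0.34, adjusted p = 0.769) with vehicle contralateral replicate 1 and 0.11 (adjusted p = 0.936) without it. Both treatment comparisons use the libraries of the region comparisons, so their values are not independent of those above.

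The difference between the treatments in the change from contralateral to peri-infarct tissue was tested in 1 model over the 20 libraries, without a term for the mouse. Cux2, Rorb and Tbr1 had a larger fall beside the infarct in mice labelled HPBCD, and no member had a difference past the threshold in the other direction. The difference was -0.95 for Cux2 (SE 0.28, adjusted p = 0.0417), -0.78 for Rorb (SE 0.18, adjusted p = 0.0198) and -1.31 for Tbr1 (SE 0.35, adjusted p = 0.0296) on the log2 scale. For Rorb, contralateral means were 64.6 ± 7.96 CPM (vehicle) and 88.3 ± 14.6 CPM (HPBCD) and peri-infarct means were 44.7 ± 7.06 and 35.6 ± 4.53 CPM (SD, n = 5), so that both regions contributed. For Cux2 and Tbr1 the contralateral means were closer, at 88.1 ± 20.8 and 97.9 ± 12.6 CPM for Cux2 and 170.0 ± 30.4 and 194 ± 16.5 CPM for Tbr1. Rasgrf2 had a difference of -0.82 (SE 0.33, adjusted p = 0.109), which became -0.95 (adjusted p = 0.0351) with the mouse as a block.

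Bcl11b (0.55, SE 0.43, adjusted p = 0.418) and Foxp2 (0.59, SE 0.35, adjusted p = 0.263) had differences of the opposite sign that were not called, and that of Bcl11b was -0.01 without vehicle contralateral replicate 1 and -0.11 without the 3 libraries that stand apart. Cux1 (-0.35, SE 0.17, adjusted p = 0.174), Fezf2 (-0.76, SE 0.44, adjusted p = 0.264) and Tle4 (-0.22, SE 0.21, adjusted p = 0.517) were not called either. The count was 3 of 9 lower against 4.38% of the 16758 genes tested and 0 of 9 higher against 5.03%. The call of Rorb held without each of the 20 libraries in turn and without the 3 that stand apart (-0.69, adjusted p = 0.0304), whereas without those 3 neither Cux2 (-0.72, adjusted p = 0.107) nor Tbr1 (-1.18, adjusted p = 0.0529) was called. That of Cux2 was lost without 12 of the 20, namely vehicle peri-infarct replicates 1, 2 and 4, vehicle contralateral replicates 1, 3 and 5, HPBCD peri-infarct replicates 3 and 4 and HPBCD contralateral replicates 2, 3, 4 and 5, with adjusted p up to 0.0886. That of Tbr1 was lost without 7, namely vehicle peri-infarct replicates 2 and 5, vehicle contralateral replicates 1 and 3, HPBCD peri-infarct replicate 3 and HPBCD contralateral replicates 2 and 4, with adjusted p up to 0.0619. Scaled to the excitatory genes, which put the median of all genes at 0.77, the differences of Cux2 (-0.20), Rorb (-0.01) and Tbr1 (-0.60) were not called, and those of Bcl11b (1.33, adjusted p = 0.0164) and Foxp2 (1.43, adjusted p = 0.0117) were called in the opposite direction, as were 64.7% of all genes.

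**Figure D5:**
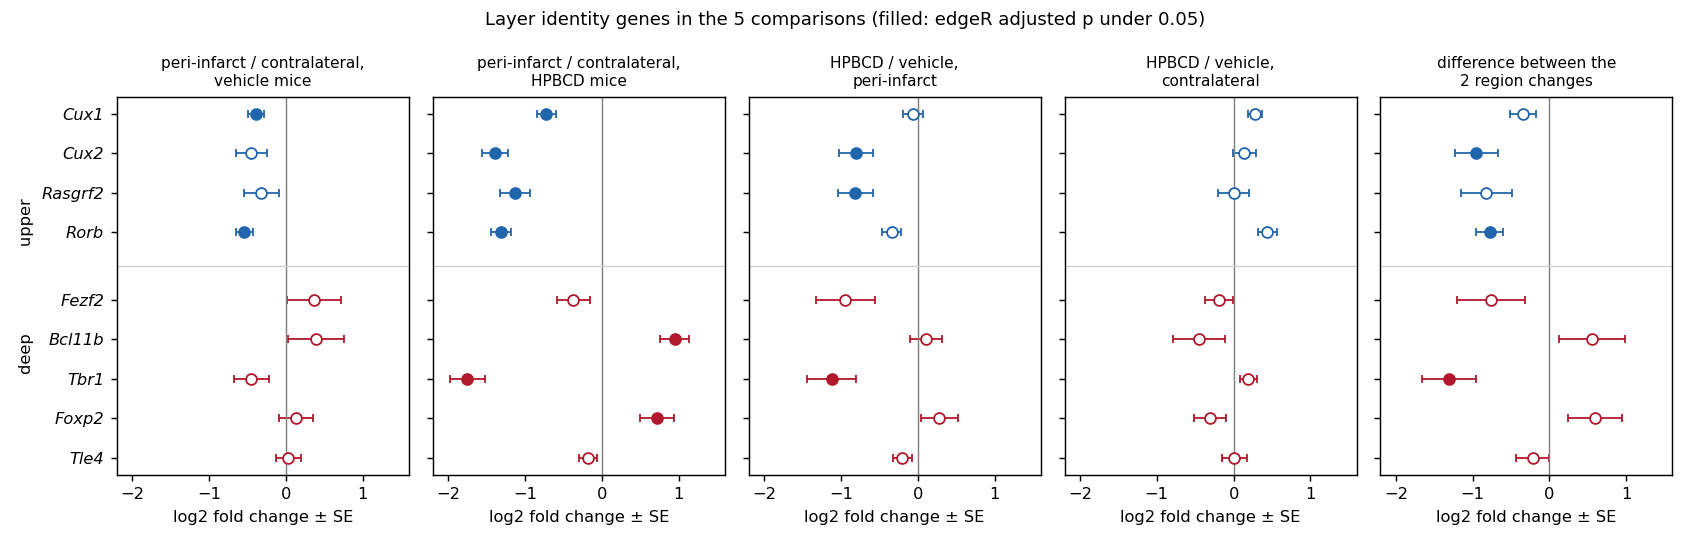
Log2 fold change with its SE (x axis) of the 9 members (rows, upper-layer genes in blue and deep-layer genes in red) in 5 comparisons; filled points passed the threshold of 0.05. The 4 blue points lie left of 0 in both comparisons of regions, and in mice labelled HPBCD the red points spread from -1.75 for Tbr1 to 0.95 for Bcl11b.

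Further genes of the same layers were counted beside the shares of all genes given above, which were 9.7% lower and 10.5% higher in vehicle mice and 24.3% and 30.3% in mice labelled HPBCD. Of 15 other upper-layer genes, 3 were called lower and 1 higher in peri-infarct tissue of vehicle mice (median -0.15), and 7 lower and 3 higher in mice labelled HPBCD (median -0.32). Rspo1, a secreted activator of Wnt signalling, fell in both, by 1.80 and 2.54 on the log2 scale (adjusted p = 0.00275 and 2.06e-06), while Mdga1, an adhesion protein that limits synapses, rose by 0.95 and 1.84 (adjusted p = 0.0266 and 0.00744). Of 20 other deep-layer genes, 0 were called lower and 4 higher in vehicle mice (median 0.03), and 5 lower and 3 higher in mice labelled HPBCD (median -0.10), a lower share close to that of all genes. Crym, a thyroid hormone binding protein that striatal neurons also make, rose by 1.02 and 1.6 (adjusted p = 0.016 and 0.015), and Qrfpr, a peptide receptor, fell by 1.91 in mice labelled HPBCD (adjusted p = 0.000299). The medians of all genes tested were 0.01 in vehicle mice and 0.03 in mice labelled HPBCD, against -0.42 and -1.22 for the upper-layer members and 0.13 and -0.18 for the deep-layer members. Between treatments, 4 other upper-layer genes were called lower and 1 higher in peri-infarct libraries labelled HPBCD, and 3 other deep-layer genes lower and 2 higher, beside 9.0% of all genes lower and 12.4% higher. The upper minus deep score over these further genes was 0.318 ± 0.36 (SD, n = 5) in vehicle contralateral and 0.0906 ± 0.372 in vehicle peri-infarct libraries. It was 0.599 ± 0.259 in HPBCD contralateral and 0.321 ± 0.208 in HPBCD peri-infarct libraries. Beside the infarct it was thus higher under the HPBCD label, unlike the score of the members.

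Genes that excitatory neurons of all layers share were measured beside the members. These 11 genes summed to 8910 ± 852 CPM in vehicle contralateral, 7720 ± 546 in vehicle peri-infarct, 9500.0 ± 194 in HPBCD contralateral and 5120.0 ± 1300.0 in HPBCD peri-infarct libraries (SD, n = 5). In vehicle mice 2 of the 11 were called lower, and in mice labelled HPBCD 8 were, among them the homeobox factor Emx1 (-2.06, adjusted p = 2.71e-06). The list was not uniform, since Arpp21 (0.29), Neurod6 (0.12) and Bhlhe22 (0.04) were not called there. Camk2a, the largest part of the sum (mean 2940 CPM), was at -0.56 (adjusted p = 0.0199). The part of striatal and hippocampal tissue in this list, and so in the scaling to it, was not tested. Astrocyte markers rose in the same tissue, 5 of 8 in vehicle mice and 6 of 8 in mice labelled HPBCD, as did microglial and macrophage markers, 6 and 7 of 7. Oligodendrocyte markers were called higher in 0 of 6 and 6 of 6, markers of their precursors in 2 and 3 of 4, and fibroblast markers in 1 and 5 of 5. Genes of neurons in general were called lower in 4 and 11 of 11, and interneuron genes in 2 and 7 of 8. Of markers that passed the filter, those of ependyma and choroid plexus were called higher in 1 of 4 and 4 of 7, and thalamic markers in 2 and 3 of 6, with 1 lower in both treatments. Hippocampal markers were called higher in 0 and 2 of 4, with 1 lower in both, but 1 of the 2 was Fibcd1 (adjusted p = 0.0498), at 175 CPM in HPBCD peri-infarct replicate 2 and 6.89 to 7.82 CPM in the other 4, against 7.79 to 9.2 CPM in contralateral libraries. Endothelial markers were called higher in 0 and 1 of 4, with 1 lower in mice labelled HPBCD. The part of these other cells in the falls of the layer genes was not tested.

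The members also differed in which libraries were high within a group. Over the deviations from the group means in 20 libraries, the closest pairs of members were Cux2 with Rasgrf2 (r = 0.84), Fezf2 with Tbr1 (r = 0.71), Cux1 with Rorb (r = 0.66), Cux2 with Tbr1 (r = 0.62) and Foxp2 with Tle4 (r = 0.61). Of these, Cux2 with Tbr1 crosses the layers. Next came Rasgrf2 with Tbr1, also across layers, and Cux1 with Cux2, both at r = 0.55. Pairs within a layer reached down to r = 0.25 for Rasgrf2 with Rorb and -0.37 for Bcl11b with Tbr1, so closeness did not follow layer alone. Bcl11b went against the upper-layer genes, from r = -0.50 with Cux2 to -0.30 with Rorb. Vehicle contralateral replicate 1 and HPBCD peri-infarct replicate 2 had the most Bcl11b and the least Cux1 and Cux2 of their groups. The correlations of Bcl11b were not taken without these libraries. Among 11793 genes, the deviations most like those of Tbr1 were of Ipcef1 (r = 0.97) and Nxph3 (r = 0.95), and those most like Fezf2 were of Basp1 (r = 0.94) and Dnaja1 (r = 0.93). Bcl11b was closest to Kcnab1 and Smpd3 (both r = 0.95), Rasgrf2 to Zfp941 (r = 0.91) and Stxbp6 (r = 0.90), and Tle4 to Smco3 (r = 0.89) and Klhl4 (r = 0.86). Cux2 was closest to Rasgrf2 and to Pitpnm2 (both r = 0.84), Cux1 to Tcf19 (r = 0.85) and Kitl (r = 0.81), Rorb to Stk17b (r = 0.85) and Eif4e3 (r = 0.83), and Foxp2 to Pik3ip1 (r = 0.87) and Elmo1 (r = 0.85). These correlations describe the 20 libraries, which share dissections and depth, and carry no test.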

How the data were processed

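RNA was sequenced from peri-infarct and contralateral tissue of 10 mice, 5 per treatment. The authors trimmed reads with Trimmomatic 0.32, aligned them with STAR 2.5.2b to GRCm38 and deposited raw counts per gene made with HTSeq, whose version, annotation release and strand option are not given in the sources used here. Rows that name no gene were left out: no feature held 4.39 to 9.5%, ambiguous reads 3.94 to 8.03% and non-unique alignments 16.58 to 24.3%, as a percent of all counts in a file, these rows included. Symbols, coordinates and exon lengths came from a GRCm38 annotation that held 98.16% of the 46078 genes and 99.933% of the counts. No 2 libraries were identical.

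Counts were tested with edgeR 4.0.16 in R 4.3.3 (quasi-likelihood F test, TMM factors, filterByExpr, Benjamini-Hochberg adjustment over all genes tested, threshold 0.05), within the groups compared, and the interaction over the 20 libraries. DESeq2 1.42.0, RLE factors, no filter, scaling to the excitatory genes, a replicate block and leaving out libraries were alternatives. Levels on the log2 scale are log2 CPM with a prior count of 2. Depth was 14445021 to 22171627 gene counts, and floors cover counting error only. On simulated counts with 200 genes changed 2-fold, edgeR recovered 70.5% of them for the regions of vehicle mice (15801 genes) and 49.5% for the interaction (16758 genes), with 7.84% and 4.81% of its calls false. DESeq2 recovered 77.5% and 60% with 19.3% and 15.5% false.

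The regions of a mouse share an identifier in 10 of 10 pairs. Their deviations from the group means had a mean r of 0.162 over 11794 genes, with 6 of 10 pairs over 0.1. The main fits held no term for the mouse, so they treated both regions of a mouse as independent. The replicate block was the alternative with such a term. Replicates are separate mice.

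The members and gene lists were chosen with earlier results of these data known. All 9 members are named. From further lists (upper layer, deep layer, excitatory, neuronal, interneuron, striatum, thalamus, hippocampus, ependyma and choroid, astrocyte, microglia and macrophage, oligodendrocyte, precursors, endothelium, fibroblast), named genes were among the 3 largest called changes with a mean of at least 1 CPM, and likeness was sought among genes of at least 5 CPM. Levels of Drd2 and Fibcd1 are given because of what they showed.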

Additional observations from a re-analysis of the deposited data

Results flagged for a closer look

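Within the 40 groups of 5 libraries (9 members and 4 groups give 36 of them, the scores the rest), a library stood far from the others in 6 cases, judged by its gap to the nearest library as a share of the group's range, with 0.71 as the limit. Chance alone passes that limit in about 1 of 20 groups. HPBCD peri-infarct replicate 2 was the low library for Cux1 (0.843), Rorb (0.884) and Foxp2 (0.787) and the high library for Bcl11b (0.842). HPBCD contralateral replicate 1 was low for Rorb (0.832), and vehicle contralateral replicate 1 was high for Bcl11b (0.737).

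The change from contralateral to peri-infarct tissue differed between the treatments for 3 members by the interaction test of edgeR. The differences were -0.95 for Cux2, -0.78 for Rorb and -1.31 for Tbr1 on the log2 scale, each with the larger fall in mice labelled HPBCD.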

How the results depend on the processing

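In the comparison of regions in vehicle mice, 2 members were called, 0 when scaled to the excitatory genes and 1 to 3 when 1 library was left out. In mice labelled HPBCD 7 were called, 5 when scaled to the excitatory genes and 7 to 8 when 1 library was left out. That scaling reversed Cux1 (0.28), Fezf2 (0.49) and Tle4 (0.78) there, and Cux1 (0.63) between treatments beside the infarct. Values that were not called also changed sign with it, namely Rorb (0.35) and Tle4 (0.45) between treatments beside the infarct, Rasgrf2 (-0.06) and Tle4 (-0.10) between treatments in contralateral tissue, and Cux1 (0.44) and Tle4 (0.55) in the interaction. Between treatments beside the infarct the scaling called Cux1, Bcl11b (0.72) and Foxp2 (1.0), none of them called without it, and 68.0% of all genes higher. Between treatments beside the infarct 3 were called, 5 with DESeq2, 0 without the 3 libraries that stand apart (chosen after seeing the data) and 0 to 4 when 1 library was left out. The interaction called 3, 1 without those 3 libraries and 1 to 4 when 1 library was left out. Without Bcl11b and Foxp2 the difference of the upper minus deep score was -0.35 in place of -1.0 between regions in mice labelled HPBCD, 0.19 in place of -0.16 between treatments beside the infarct and -0.01 in place of -0.48 for the interaction. With the replicate block 3, 7, 4, 0 and 4 members were called in the 5 comparisons, and the pairing holds only between the regions of a mouse. Over all genes, the interaction called 1577 with edgeR and 2514 with DESeq2. Scaling to the excitatory genes called 3589 higher and 297 lower in vehicle mice, 13143 and 273 in mice labelled HPBCD, 11026 and 18 between treatments beside the infarct, and 10846 and 17 for the interaction. Causes were not tested.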
